A study of Mus musculus with 6 samples.

Results

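The genes that attach glutathione, glucuronate or sulfate to drugs, dietary compounds, hormones and bile pigments were examined in colorectal tumors with and without epithelial p53. Members were taken by gene name from the deposited expression table: the soluble glutathione S-transferases of the alpha, kappa, mu, omega, pi, theta and zeta classes (*Gst*), the membrane-bound glutathione S-transferases (*Mgst*), the UDP-glucuronosyltransferases (*Ugt*) and the cytosolic sulfotransferases (*Sult*), with pseudogene names left out. The rule found 69 genes among the 54167 of the table, made up of 23 *Gst*, 3 *Mgst*, 22 *Ugt* and 21 *Sult* genes. It used names alone and no expression value.

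Tumors came from C57BL/6J mice of 2 genotypes. The Trp53fl/fl mice carried floxed alleles of *Trp53*, which encodes p53, without a recombinase. The VP mice carried the same floxed alleles together with Pvillin-Cre, a Cre recombinase driven by the promoter of villin, a gene of the intestinal epithelium. Male mice were treated from 8 weeks of age with the carcinogen azoxymethane (AOM, 10 mg/kg) and with cycles of 2.5% dextran sulfate sodium (DSS, 7 days each), so that both groups had a chemically induced, inflamed colon. The tumor stage assessed in this model is day 98, and whole tumor tissue was sequenced, with 3 tumors of each genotype. Villin marks epithelium, so stroma and immune cells in a VP tumor lie outside the reach of this Cre and the loss of p53 is not a loss in the whole tumor. The labels do not say whether the 3 tumors of a genotype came from separate mice, so the p-values below measure only the spread between these tumors. In a bulk tumor, fewer cells of a type and less RNA per cell cannot be told apart.

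As background, these enzymes carry out phase II metabolism. A glutathione transferase joins the thiol of glutathione to an electrophile, a glucuronosyltransferase moves glucuronic acid from UDP-glucuronate to a hydroxyl, carboxyl or amine group, and a sulfotransferase moves a sulfonate group from PAPS, the activated form of sulfate. The conjugates are more soluble in water and leave the cell through transporters of the ABC family. In the gut, the epithelium conjugates food compounds and bacterial products before they reach the blood.

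Expression was given as TPM (a transcript's share of all transcripts on a fixed total), a level scaled for transcript length and for the total of each library. Column sums ran from 999964 to 1000067, and 14857 to 15234 genes reached 1 TPM per tumor. The read depth behind the values is unknown, so no counting error can be given. *Trp53* itself was lower in the VP tumors, at 27.8 to 38.5 TPM against 99.3 to 147 TPM (log2 difference -1.87, SE 0.18, limma adjusted p = 0.0207). The 12 epithelial markers were all expressed, with a summed level of 9586 to 10210 TPM in Trp53fl/fl tumors and 10400 to 11770 TPM in VP tumors. The 9 neutrophil markers summed to 261.7 to 604.3 TPM in Trp53fl/fl and to 1111 to 1911 TPM in VP tumors, and all 9 had a positive log2 difference (8 of 9 after epithelial centring), with *Ngp* past the adjusted threshold. No marker of any list was at 0 in all tumors. The summed level of the 9 mature colonocyte markers overlapped between genotypes, at 1042 to 1191 TPM and 869.6 to 1473 TPM, and so did the sums of the goblet, fibroblast, smooth muscle and lymphocyte lists. Within these lists *Car1* (colonocyte), *Clca1* (goblet), *Lum* and *Pdgfra* (fibroblast) were lower in every VP tumor. The log2 differences were -0.94, -1.54, -0.57 and -0.56 (limma unadjusted p = 0.0141, 0.00459, 0.0119 and 0.0102), and none passed the adjusted test. *Cd3g* (lymphocyte) was lower in every VP tumor as well (-0.57, limma unadjusted p = 0.0511). Of 3 tested lymphocyte markers 1 had a positive difference, and 0 after epithelial centring. The difference was positive for 7 of 9 colonocyte, 3 of 7 goblet and 3 of 7 fibroblast markers, and for 39.2% of all genes tested. After epithelial centring these counts were 5, 3 and 2 (23.5% of all genes). Epithelial *Krt19* and *Cldn7* and macrophage *Cd68* were higher in every VP tumor. Their log2 differences were 0.39, 0.37 and 0.53 (limma unadjusted p = 0.0262, 0.0132 and 0.00487), and none passed the adjusted test. In their lists 9 of 12 epithelial and 4 of 6 macrophage markers had a positive difference, beside 39.2% of all genes tested. After epithelial centring these were 5 of 12 and 4 of 6 (23.5% of all genes). Macrophage markers summed to 440.9 to 477.1 TPM and 453.7 to 568.1 TPM. The part of these shifts in the results below was not tested.

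Of the 69 conjugation genes, 34 (49.3%) reached 1 TPM in at least 3 tumors and were tested, 17 were detected below that level, and 18 were listed at 0 in every tumor. A gene that entered through 1 genotype alone would tend to differ, so the counts below describe tested genes and not the whole family. None of the 34 passed an adjusted p of 0.05 in limma on log2(TPM + 1), where 25 of all 15117 genes tested (0.165%) did, 0.0794% higher and 0.086% lower in VP. The lowest adjusted p among the members was 0.325. At an unadjusted p below 0.05 there were 8 members (23.5%), 7 higher and 1 lower in VP. Over all genes tested the share was 12.5%, with 4.51% higher and 8% lower. The 7 higher members were *Sult1a1*, *Gstt2*, *Gstt1*, *Gstt3*, *Ugt1a7c*, *Sult1c2* and *Mgst3*, and the lower member was *Ugt2b34*. For 5 members (14.7%) the 3 tumors of each genotype did not overlap, against 19.3% of all genes tested, 6.03% higher and 13.3% lower in VP. These were *Sult1a1*, *Gstt2*, *Gstt3* and *Sult1c2*, higher in VP, and *Ugt2b34*, lower in VP.

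The log2 difference, VP minus Trp53fl/fl, ran from -0.44 to 1.16 over the 34 tested members, with a median of 0.15. Over all genes tested the median was -0.07. The sign was positive for 24 of 34 members (70.6%) and for 39.2% of all genes tested. This count depends on the scale. After rescaling by median-of-ratios size factors it was 26 of 34 (76.5%), beside 50.1% of all genes, whose median was then 0.00. After centring each tumor on the 12 epithelial markers it was 18 of 34 (52.9%), beside 23.5% of all genes, whose median was then -0.19. The members' median was 0.23 and 0.03 on these scales, which shift all genes of a tumor alike. Single tumors also mattered. Without Trp53fl/fl tumor 1 no member had an unadjusted p below 0.05 (7.48% of all genes did), without VP tumor 1 there were 3 (10.1% of all genes), and without Trp53fl/fl tumor 3 there were 9 (16.1%). There were 4 without Trp53fl/fl tumor 2 (9.79%), 4 without VP tumor 2 (8.24%) and 7 without VP tumor 3 (12.7%).

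**Figure D1:**
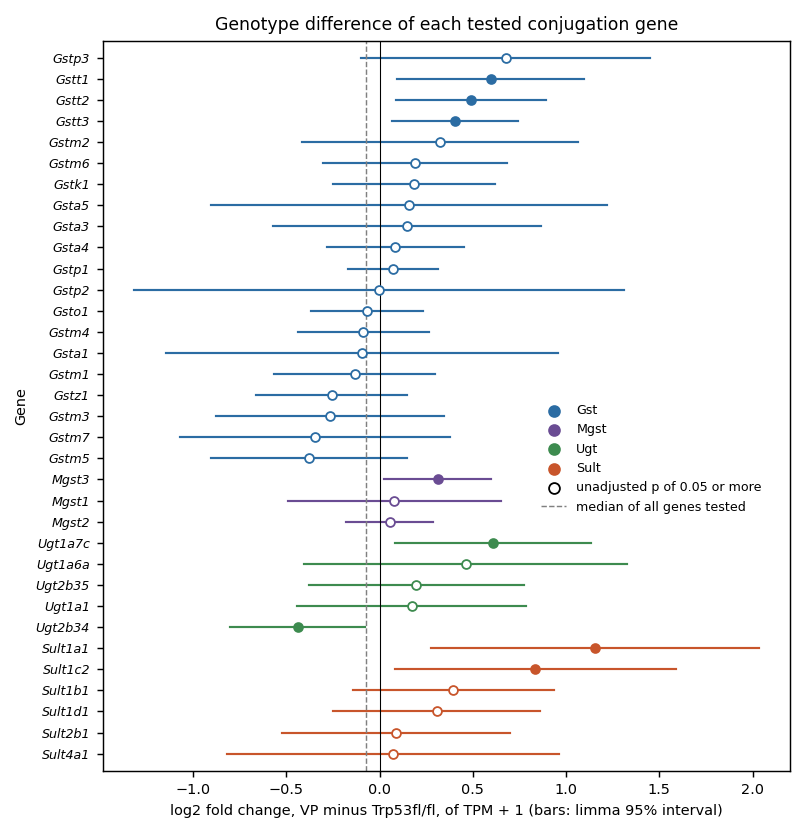
Log2 difference in log2(TPM + 1), VP minus Trp53fl/fl, for the 34 tested conjugation genes by family, with limma 95% confidence intervals. Points lie between -0.44 and 1.16, 24 of 34 are above 0 (18 of 34 after epithelial centring), and none passes an adjusted p of 0.05.

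The summed level of all 69 genes was 2335, 2261 and 2514 TPM in the Trp53fl/fl tumors and 2526, 2401 and 2402 TPM in the VP tumors. The soluble *Gst* genes made up most of it, at 1744 ± 122 TPM in Trp53fl/fl and 1728 ± 42.8 TPM in VP (mean ± SD, n = 3 each). The 5 genes with the highest level, *Gstp1*, *Gsto1*, *Gstm5*, *Mgst3* and *Gstm1*, held 58.9% of the summed TPM. The *Ugt* sum overlapped between genotypes, at 104.6, 121.1 and 102.5 TPM against 125.9, 109.2 and 87.6 TPM. The *Sult* sum did not, at 81.2, 106.4 and 86.2 TPM in Trp53fl/fl tumors and 141, 129.6 and 107.6 TPM in VP tumors, a ratio of means of 1.38. The *Mgst* sum did not overlap either, at 404.3, 411.5 and 459.5 TPM against 492.1, 480.6 and 472.1 TPM, a ratio of 1.13. These sums carry no test.

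**Figure D2:**
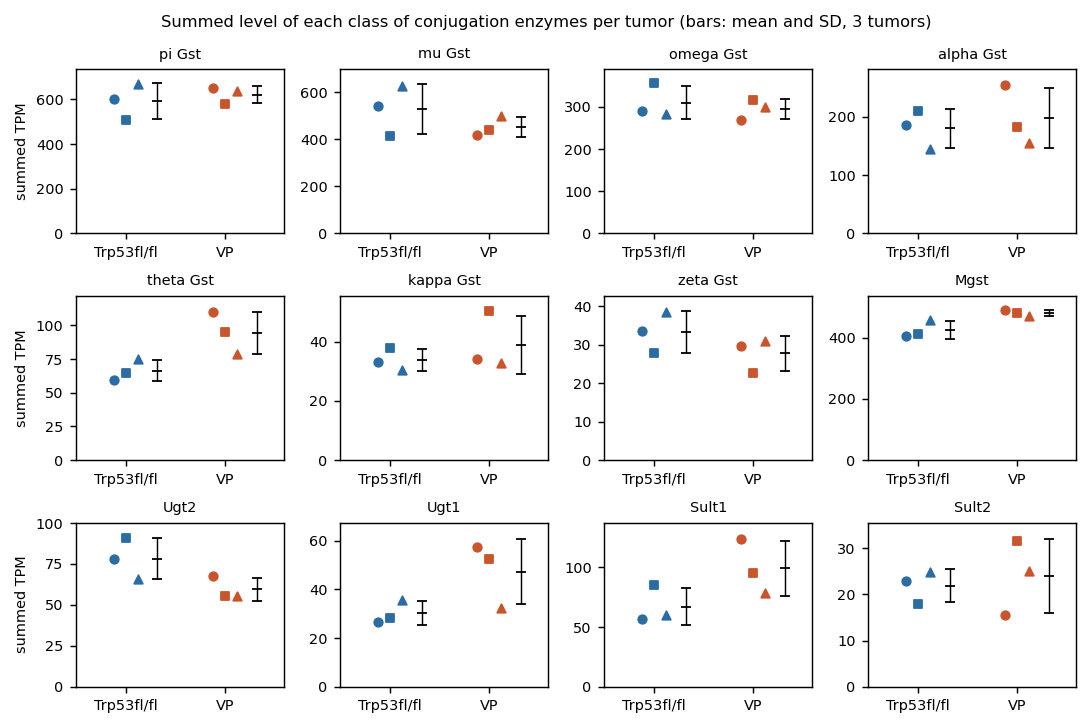
Summed TPM of each class of conjugation gene in the 3 Trp53fl/fl and 3 VP tumors, with 1 point per tumor and bars for the mean ± SD. The ratio of means, VP to Trp53fl/fl, is 1.57 for *Ugt1*, 1.48 for *Sult1*, 1.42 for theta *Gst* and 0.760 for *Ugt2*, and of these 4 the theta sums alone do not overlap between genotypes.

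All 3 tested theta genes were among the 8 members with an unadjusted p below 0.05. Theta enzymes act on small halogenated compounds and on organic hydroperoxides. The class has 4 genes side by side on the minus strand of chromosome 10 (GRCm38), *Gstt3* at chr10:75774115-75781414, *Gstt1* at chr10:75783813-75798584, *Gstt4* at chr10:75814943-75822543 and *Gstt2* at chr10:75831114-75837424. *Gstt4* reached at most 0.11 TPM and was not tested.

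*Gstt2* (ENSMUSG00000033318) read 32.1, 33.0 and 36.9 TPM in the Trp53fl/fl tumors and 61.7, 44.7 and 40.3 TPM in the VP tumors. Every VP tumor was above every Trp53fl/fl tumor, with VP tumor 1 highest. Its log2 difference was 0.49 (SE 0.17, 95% interval 0.09 to 0.89, limma unadjusted p = 0.0230, adjusted p = 0.341), and 0.31 without VP tumor 1 (unadjusted p = 0.0503). *Gstt3* (ENSMUSG00000001665) read 18.4, 21.6 and 23.9 TPM against 28.9, 31.4 and 25.0 TPM. The groups again did not overlap, though Trp53fl/fl tumor 3 and VP tumor 3 lay close together. Its log2 difference was 0.40 (SE 0.14, unadjusted p = 0.0260, adjusted p = 0.346). *Gstt1* (ENSMUSG00000001663), known for its action on dihalomethanes, read 8.91, 10.1 and 13.95 TPM against 19.4, 18.7 and 13.2 TPM. VP tumor 3 fell inside the Trp53fl/fl range and the other VP tumors were above it. The log2 difference of *Gstt1* was 0.60 (SE 0.21, unadjusted p = 0.0257, adjusted p = 0.346). The sum of the class was 59.4, 64.7 and 74.9 TPM in Trp53fl/fl and 110.0, 94.9 and 78.4 TPM in VP, a ratio of means of 1.42. All 3 tested theta genes had a positive difference on the 3 scales. None of them kept an unadjusted p below 0.05 without Trp53fl/fl tumor 1, without VP tumor 1 or after epithelial centring. The log2 differences of *Gstt2*, *Gstt3* and *Gstt1* were then 0.45, 0.31 and 0.47 without Trp53fl/fl tumor 1, 0.31, 0.39 and 0.50 without VP tumor 1, and 0.37, 0.28 and 0.48 after centring.

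Because the theta genes lie together, the other genes within 100 kb were read as well, a choice made after the values were seen. Of 7 tested neighbours 4 had a positive difference, beside 39.2% of all genes tested. A limma unadjusted p below 0.05 was found for 3 of the 7, beside 12.5% of all genes. *Mif*, a cytokine gene, gave a log2 difference of 0.43 (limma unadjusted p = 0.0388, adjusted p = 0.379). *Ddt*, its paralog, gave 0.28 (unadjusted p = 0.0462, adjusted p = 0.392), and both had every VP tumor above every Trp53fl/fl tumor. *Mmp11*, a stromal metalloproteinase gene in the same interval, gave -0.63 (unadjusted p = 0.00873, adjusted p = 0.301). *Derl3* and *Chchd10* gave 0.43 and 0.10 (limma unadjusted p = 0.218 and 0.706), and *Smarcb1* and *Cabin1* gave -0.10 and -0.04. The genes around the theta cluster therefore did not share 1 direction.

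**Figure D3:**
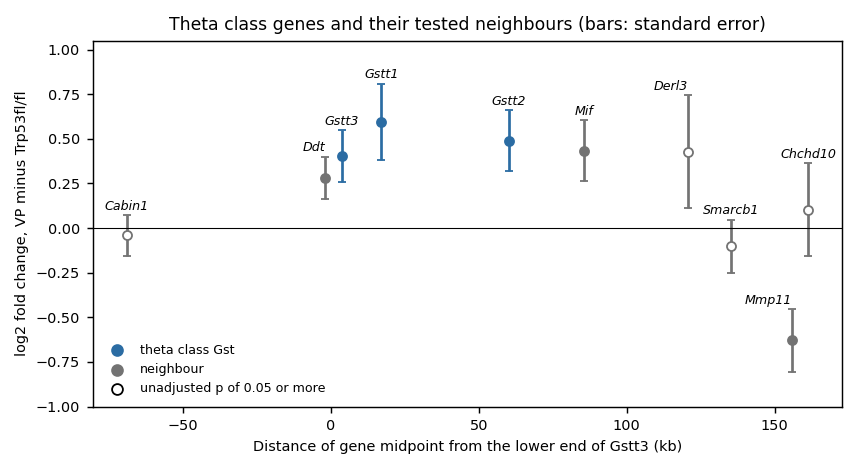
Log2 difference, VP minus Trp53fl/fl, of tested genes by distance (kb) along chromosome 10 from the lower end of *Gstt3*, with bars for the standard error and filled points for an unadjusted p below 0.05. The 3 theta genes lie between 0.40 and 0.60, while neighbours range from -0.63 to 0.43.

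The reference sequence upstream of the start sites of 2 theta genes is shown with that of the members with the largest positive difference, the largest negative difference, and an alpha gene that carries matches to 2 motifs. These are the 250 bases before the RefSeq start (GRCm38.p6), written 5′ to 3′ on the gene's strand: *Gstt3* chr10:75781423-75781672 (-), *Gstt1* chr10:75797732-75797981 (-, in an intron of the longest GENCODE transcript), *Sult1a1* chr7:126676419-126676668 (-), *Ugt2b34* chr5:86906938-86907187 (-) and *Gsta3* chr1:21240335-21240584 (+). Capitals mark matches to the antioxidant response element core TGACNNNGC, where N is any base, and to the HNF1 motif GTTAAT, on either strand.
Gstt3: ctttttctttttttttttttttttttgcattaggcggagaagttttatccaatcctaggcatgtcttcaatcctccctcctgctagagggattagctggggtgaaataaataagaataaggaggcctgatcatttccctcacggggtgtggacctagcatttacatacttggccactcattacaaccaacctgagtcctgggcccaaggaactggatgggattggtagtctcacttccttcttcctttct
Gstt1: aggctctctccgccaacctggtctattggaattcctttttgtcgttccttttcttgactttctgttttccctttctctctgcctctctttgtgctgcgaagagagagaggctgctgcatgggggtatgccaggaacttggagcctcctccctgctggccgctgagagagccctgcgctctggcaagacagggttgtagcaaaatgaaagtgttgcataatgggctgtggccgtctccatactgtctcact
Sult1a1: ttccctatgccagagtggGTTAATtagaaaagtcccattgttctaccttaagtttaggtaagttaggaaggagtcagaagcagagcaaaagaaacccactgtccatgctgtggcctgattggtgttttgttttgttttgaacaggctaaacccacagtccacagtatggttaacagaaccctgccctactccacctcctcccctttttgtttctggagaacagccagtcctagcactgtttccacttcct
Ugt2b34: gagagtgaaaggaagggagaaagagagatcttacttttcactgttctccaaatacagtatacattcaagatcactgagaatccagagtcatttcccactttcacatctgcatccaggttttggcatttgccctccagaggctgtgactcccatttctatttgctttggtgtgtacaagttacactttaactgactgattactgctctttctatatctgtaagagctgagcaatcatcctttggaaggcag
Gsta3: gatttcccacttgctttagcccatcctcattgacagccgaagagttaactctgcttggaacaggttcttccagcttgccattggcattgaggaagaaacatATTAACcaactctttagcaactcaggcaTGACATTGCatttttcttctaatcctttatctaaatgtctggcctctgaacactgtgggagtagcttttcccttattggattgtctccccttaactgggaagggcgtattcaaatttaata

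No match to the 4 motifs searched lies in the *Gstt3*, *Gstt1* or *Ugt2b34* window, which says only that these letters are not there. The *Sult1a1* window holds GTTAAT 232 bases before the start. The *Gsta3* window holds the antioxidant core 121 bases before the start and the HNF1 motif, on the opposite strand, 149 bases before it. RefSeq windows were found for 60 of the 69 members and for 30 of the 34 tested; *Gstt2*, *Gsta4*, *Gsta5* and *Sult4a1* had none. The antioxidant response element is bound by Nrf2, which drives many detoxification genes. Its core was in 4 of the 60 members (6.67%), all of them among the 30 tested (13.3%: *Gsta3*, *Gstm5*, *Gstm7* and *Mgst1*). Over all 27025 genes with windows the share was 11.5%, where a match in any window of a gene counted. GTTAAT, read by the hepatocyte and gut factor HNF1, was in 14 of the 60 members (23.3%) and in 7.49% of all genes with windows. Of the 14, 5 were tested (16.7% of the 30: *Gsta3*, *Sult1a1*, *Sult1d1*, *Ugt1a1* and *Ugt1a6a*). The dioxin response core TNGCGTG, bound by the aryl hydrocarbon receptor, was in 3 members (5%) and in 4.76% of all genes with windows. Of the 3, *Sult1d1* was the tested one (3.33% of the 30). The caudal homeobox motif TTTATG was in 5 members (8.33%) and in 12.4% of all genes with windows. Of the 5, 4 were tested (13.3% of the 30: *Gstm5*, *Gstm6*, *Mgst1* and *Sult1d1*). These matches are descriptions of sequence, not binding sites.

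The pi class held the highest level of any conjugation gene. *Gstp1*, a broad transferase that is abundant in gut epithelium and in many tumors, read 518, 477 and 555 TPM in Trp53fl/fl and 544, 534 and 549 TPM in VP. The groups overlapped and the log2 difference was 0.07 (SE 0.10, 95% interval -0.17 to 0.32, limma adjusted p = 0.780). Its neighbour *Gstp2* read 76.6, 25.0 and 99.0 TPM against 78.9, 31.2 and 76.7 TPM. In each genotype tumor 2 stood far below the others, and the log2 difference of -0.0045 carried an SE of 0.56. *Gstp3* ran from 7.57 to 25.7 TPM with a log2 difference of 0.68 (unadjusted p = 0.0777). The sequences of *Gstp1* and *Gstp2* overlap in part: 29.2% of the 75-base stretches of *Gstp1* transcripts also occur in *Gstp2*, and 44.9% of those of *Gstp2* occur in *Gstp1*, so reads from the pair can be split uncertainly. The sign of *Gstp1* turned after epithelial centring and that of *Gstp2* after rescaling.

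The mu class had 7 genes in a row on chromosome 3, all tested. Mu enzymes conjugate epoxides and other electrophiles, including products of polycyclic hydrocarbons. In this class 5 of 7 differences were negative (71.4%), beside 60.8% of all genes tested. The median was -0.13, beside -0.07 for all genes, and none had an unadjusted p below 0.05. *Gstm5* (chr3:107895821-107898686), the mu gene with the highest level, read 301.1, 191 and 319 TPM in Trp53fl/fl and 166, 221 and 228 TPM in VP. Trp53fl/fl tumor 2 fell within the VP range and the other Trp53fl/fl tumors were above it. The log2 difference was -0.38 (SE 0.22, 95% interval -0.90 to 0.15, limma unadjusted p = 0.134, adjusted p = 0.509). Without Trp53fl/fl tumor 2, the tumor that overlapped, it was -0.61 (unadjusted p = 0.0101). With any other tumor left out it was -0.46 to -0.23 (unadjusted p = 0.123 to 0.361). After epithelial centring it was -0.50 (limma unadjusted p = 0.0376, adjusted p = 0.245). *Gstm1* read 127, 124 and 158 TPM against 144, 95.3 and 137 TPM, a log2 difference of -0.13 (SE 0.18). *Gstm2* read 34.1, 28.3 and 62.5 TPM against 42.4, 67.5 and 42.3 TPM, a log2 difference of 0.32 (SE 0.31). *Gstm7* read 46.4, 42.4 and 45.2 TPM against 33.8, 21.8 and 57.1 TPM. The 3 Trp53fl/fl values of *Gstm7* were nearly level while the VP values spread on both sides of them, and the log2 difference was -0.35 (SE 0.31). *Gstm3*, *Gstm4* and *Gstm6* lay between 7.10 and 18.2 TPM, with log2 differences of -0.27, -0.09 and 0.19. The class sum was 540.1, 415.3 and 627.2 TPM against 419.2, 437.7 and 500.2 TPM, and the groups overlapped.

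The omega enzyme *Gsto1*, which works as a thiol transferase and reduces methylated arsenic and dehydroascorbate, was next in level to *Gstp1*. It read 291, 355 and 283 TPM in Trp53fl/fl and 269, 315 and 300.2 TPM in VP. The tumors overlapped, and the log2 difference of -0.07 (SE 0.13, limma adjusted p = 0.838) turned sign after rescaling. *Gsto2* reached at most 0.52 TPM. *Gstk1*, the mitochondrial and peroxisomal kappa enzyme, read 33.2, 37.8 and 30.3 TPM against 34.0, 50.4 and 32.8 TPM, a log2 difference of 0.18 (SE 0.18). *Gstz1*, which isomerises maleylacetoacetate in tyrosine breakdown, read 33.5, 27.8 and 38.7 TPM against 29.6, 22.6 and 31.0 TPM, a log2 difference of -0.26 (SE 0.17, unadjusted p = 0.178). Neither class separated the genotypes in TPM. After epithelial centring the log2 difference of *Gstz1* was -0.38 (limma unadjusted p = 0.0462, adjusted p = 0.257).

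The alpha enzymes bind bilirubin and steroids and reduce lipid peroxides. *Gsta4*, which conjugates the lipid peroxidation product hydroxynonenal, read 109, 116 and 85.4 TPM in Trp53fl/fl and 114, 121 and 93.7 TPM in VP, a log2 difference of 0.08 (SE 0.16). *Gsta3* read 45.4, 58.4 and 28.4 TPM against 66.6, 38.9 and 39.7 TPM, a log2 difference of 0.15 (SE 0.30). Both overlapped between genotypes, and the sign of *Gsta4* turned after epithelial centring. *Gsta5* (*Gm10639* in GENCODE M21) read 15.8, 17.9 and 20.2 TPM against 45.4, 15.03 and 11.6 TPM. VP tumor 1 alone was above the Trp53fl/fl tumors and the other VP tumors were below them. Its log2 difference was 0.16 (SE 0.45) with VP tumor 1 and -0.41 (unadjusted p = 0.0596) without it. *Gsta1* had the same tumor highest, at 29.1 TPM against 7.83 to 18.0 TPM in the rest. *Gsta1* shares 84.7% of its 75-base stretches with other genes and *Gsta5* 37.3%, so the levels of the pair are uncertain. *Gsta2* reached at most 0.38 TPM.

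**Figure D4:**
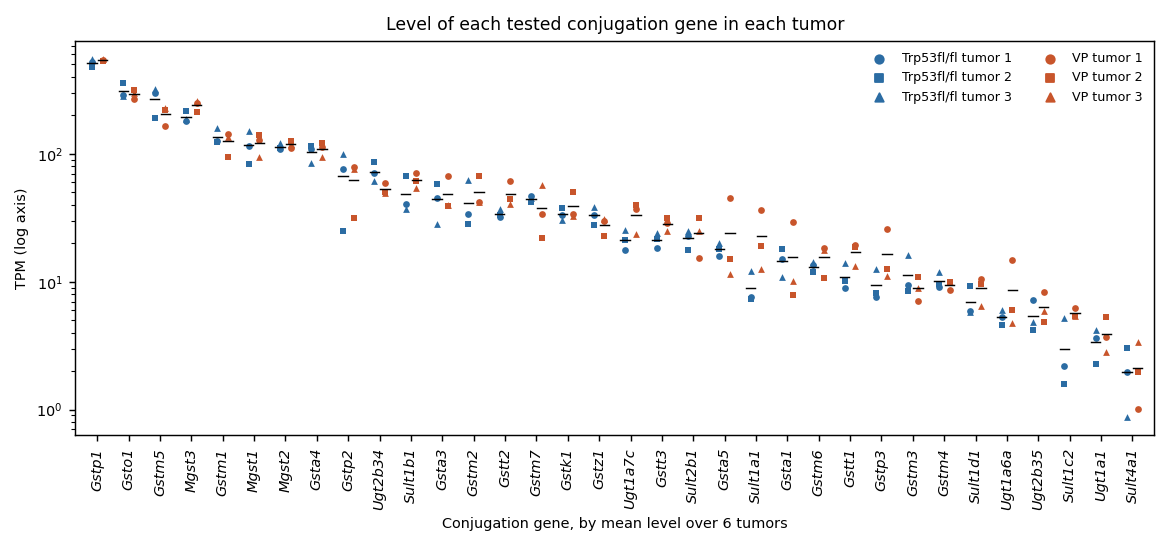
Level (TPM, log scale) of the 34 tested conjugation genes in each of the 3 Trp53fl/fl and 3 VP tumors, ordered by mean level. *Gstp1* is highest at 477 to 555 TPM, the tumors overlap for 29 of 34 genes, and *Sult1a1* shows the widest spread (5.02-fold between its highest and lowest tumor).

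The 3 membrane-bound transferases sit in the endoplasmic reticulum and outer mitochondrial membrane, where they reduce lipid hydroperoxides or make leukotriene C4. *Mgst3* (ENSMUSG00000026688, chr1:167371966-167393841) read 180.1, 216 and 187 TPM in Trp53fl/fl and 252, 214 and 258 TPM in VP. VP tumors 1 and 3 were above all Trp53fl/fl tumors and VP tumor 2 just below Trp53fl/fl tumor 2. The log2 difference was 0.31 (SE 0.12, 95% interval 0.02 to 0.60, limma unadjusted p = 0.0377, adjusted p = 0.376). After epithelial centring it was 0.19 (unadjusted p = 0.182). Without tumor 1 or tumor 3 of either genotype it was 0.26 to 0.29 (limma unadjusted p = 0.091 to 0.132). Without Trp53fl/fl tumor 2 or VP tumor 2 it was 0.39 and 0.40 (unadjusted p = 0.0187 and 0.0224). *Mgst1* read 115, 83.8 and 152 TPM against 129, 142 and 94.1 TPM, a log2 difference of 0.08 (SE 0.24). *Mgst2* read 110, 112 and 121 TPM against 111, 125 and 120 TPM, and at 1.14-fold between its highest and lowest tumor it varied least of the 34 members. Its log2 difference was 0.05 (SE 0.10, 95% interval -0.18 to 0.29), and the signs of *Mgst1* and *Mgst2* turned after epithelial centring.

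Among the glucuronosyltransferases, 5 of 22 genes were tested. The *Ugt1* genes sit at 1 locus on chromosome 1, each with its own first exon spliced to shared later exons, and the first exon sets what the enzyme binds. *Ugt1a7c* (ENSMUSG00000090124, chr1:88095062-88220002) read 17.6, 21.1 and 25.4 TPM in Trp53fl/fl and 37.3, 39.5 and 23.8 TPM in VP. VP tumors 1 and 2 were above every Trp53fl/fl tumor and VP tumor 3 lay inside their range. A log2 difference of 0.61 was found (SE 0.22, 95% interval 0.08 to 1.13, limma unadjusted p = 0.0285, adjusted p = 0.355). After epithelial centring it was 0.49 (unadjusted p = 0.075). Without tumor 1 or tumor 2 of either genotype it was 0.48 to 0.61 (unadjusted p = 0.0632 to 0.096). Without Trp53fl/fl tumor 3 or VP tumor 3 it was 0.74 and 0.83 (unadjusted p = 0.0219 and 0.00312). *Ugt1a6a*, which acts on planar phenols, read 14.9 TPM in VP tumor 1 and 4.57 to 5.98 TPM in the other 5 tumors. *Ugt1a1*, the bilirubin transferase, read 2.28 to 4.22 TPM in Trp53fl/fl and 2.83 to 5.29 TPM in VP, a log2 difference of 0.17. Because of the shared exons, 52.5% of the 75-base stretches of *Ugt1a7c*, 51.2% of those of *Ugt1a6a* and 78.8% of those of *Ugt1a1* occur in other genes, and the split between them is uncertain. The sum of all *Ugt1* genes read 26.5, 28.3 and 35.8 TPM against 57.2, 52.7 and 32.2 TPM. VP tumor 3 again lay within the Trp53fl/fl range.

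*Ugt2b34* (ENSMUSG00000029260, chr5:86889767-86906937) was the only member lower in VP at a limma unadjusted p below 0.05 in the main fit. It was also the *Ugt* gene with the highest level. The *Ugt2b* enzymes glucuronidate steroids, bile acids and drugs. It read 70.7, 86.7 and 60.9 TPM in Trp53fl/fl and 59.2, 50.4 and 49.3 TPM in VP. All VP tumors were below all Trp53fl/fl tumors, with VP tumor 1 just under Trp53fl/fl tumor 3. The log2 difference was -0.44 (SE 0.15, 95% interval -0.80 to -0.08, limma unadjusted p = 0.0237, adjusted p = 0.341). After epithelial centring it was -0.56 (unadjusted p = 0.0174). Without Trp53fl/fl tumor 1, Trp53fl/fl tumor 2, VP tumor 2 or VP tumor 3 it was -0.45, -0.31, -0.41 and -0.39. The limma unadjusted p was then 0.0541 to 0.0717. Without Trp53fl/fl tumor 3 or VP tumor 1 it was -0.56 and -0.52 (unadjusted p = 0.00868 and 0.0212). *Ugt2b35*, close by on the chromosome, ran from 4.22 to 8.33 TPM with a log2 difference of 0.20. The same cluster on chromosome 5 holds *Sult1b1* and *Sult1d1*, whose differences were positive.

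Sulfotransferases gave the largest difference of any member. *Sult1a1* (ENSMUSG00000030711, chr7:126672865-126676432), the phenol sulfotransferase of gut and liver, read 7.54, 7.32 and 12.1 TPM in Trp53fl/fl and 36.7, 19.0 and 12.7 TPM in VP. Every VP tumor was above every Trp53fl/fl tumor, but VP tumor 3 exceeded Trp53fl/fl tumor 3 by little and VP tumor 1 stood well above the rest. The means were 9.0 ± 2.72 and 22.8 ± 12.5 TPM (SD, n = 3 each), a ratio of 2.53. The log2 difference was 1.16 (SE 0.37, 95% interval 0.27 to 2.04, limma unadjusted p = 0.0172, adjusted p = 0.325). It was 1.04 after epithelial centring (unadjusted p = 0.0316) and 0.76 without VP tumor 1 (unadjusted p = 0.0330). Without Trp53fl/fl tumor 1 or Trp53fl/fl tumor 2 it was 1.06 and 1.04, and the limma unadjusted p rose to 0.0511 and 0.0568. Without Trp53fl/fl tumor 3, VP tumor 2 or VP tumor 3 the unadjusted p stayed below 0.05. *Sult1c2* (ENSMUSG00000023122, chr17:53829637-53846339) read 2.19, 1.6 and 5.22 TPM against 6.2, 5.41 and 5.35 TPM. All VP tumors were higher, yet Trp53fl/fl tumor 3 was close to the lowest of them. Its log2 difference was 0.84 (SE 0.32, unadjusted p = 0.0344, adjusted p = 0.368), and 1.21 without Trp53fl/fl tumor 3 (unadjusted p = 6.84e-04). With any other tumor left out it was 0.58 to 0.87, at a limma unadjusted p of 0.063 to 0.105. After epithelial centring it was 0.72 (unadjusted p = 0.051).

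*Sult1b1*, which sulfates thyroid hormones and dietary phenols, was the sulfotransferase with the highest level. It read 40.8, 66.8 and 37.1 TPM in Trp53fl/fl and 70.4, 61.5 and 54.1 TPM in VP. Trp53fl/fl tumor 2 was inside the VP range and the other Trp53fl/fl tumors below it. The log2 difference was 0.40 (SE 0.23, 95% interval -0.14 to 0.93, limma unadjusted p = 0.125). It was 0.65 (unadjusted p = 0.00391) without Trp53fl/fl tumor 2, the tumor that overlapped. With any other tumor left out it was 0.23 to 0.49 (unadjusted p = 0.110 to 0.349). *Sult2b1*, the cholesterol sulfotransferase, read 22.8, 17.8 and 24.8 TPM against 15.5, 31.5 and 24.9 TPM, and its log2 difference of 0.09 (SE 0.26) turned sign after epithelial centring. *Sult1d1* ran from 5.80 to 10.5 TPM with a log2 difference of 0.31, and *Sult4a1*, a family member known mainly from brain, from 0.87 to 3.36 TPM with 0.07. All 6 tested *Sult* genes had a positive difference, and 4 of 6 did after epithelial centring. The 4 tested *Sult1* genes were positive on each of the 3 scales.

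Untested members were at or near 0. At 0 in all 6 tumors were *Sult2a1* to *Sult2a8*, the liver sulfotransferases of bile acids and hydroxysteroids, *Sult1e1*, the estrogen sulfotransferase, *Sult1c1*, *Sult3a1* and *Sult3a2*. Of the *Ugt* genes *Ugt1a2*, *Ugt1a9*, *Ugt2a1*, *Ugt2a2*, *Ugt2b37* and *Ugt2b38* were at 0. Below the filter, *Ugt3a1* reached 1.65 TPM in its highest tumor, *Ugt1a6b* 1.2 TPM and *Ugt1a10* 1.13 TPM. The other genes below it stayed under 1 TPM in every tumor: *Ugt1a5* (0.89 TPM at most), *Sult5a1* (0.64), *Gsto2* (0.52), *Gsta2* (0.38), *Sult6b1* (0.36), *Ugt8a* (0.26), *Ugt1a8* (0.19), *Ugt2b5* (0.12), *Gstt4* (0.11), *Ugt2b36* (0.11), *Ugt2b1* (0.07), *Ugt2a3* (0.06), *Sult6b2* (0.06) and *Ugt3a2* (0.03). Just outside the filter stood *Ugt3a1*, which read 0.70 TPM in the third highest tumor, and just inside it *Sult4a1*, which read 1.96 TPM there.

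Tumors of 1 genotype differed from each other in these genes. VP tumor 1 had the highest value of the 6 tumors for 13 of 34 tested members, while it was highest for 13.9% of all genes tested. The 13 were *Gsta1*, *Gsta3*, *Gsta5*, *Gstm6*, *Gstp3*, *Gstt1*, *Gstt2*, *Sult1a1*, *Sult1b1*, *Sult1c2*, *Sult1d1*, *Ugt1a6a* and *Ugt2b35*. Trp53fl/fl tumor 1 was highest for 0 of 34, against 12.9% of all genes tested. The highest tumor exceeded the lowest by 5.02-fold for *Sult1a1*, 3.95-fold for *Gstp2* and 3.91-fold for *Gsta5*, but by only 1.16-fold for *Gstp1* and 1.32-fold for *Gsto1*.

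The cosubstrates and exporters of conjugation were read from lists. Of 7 genes that supply glutathione, all tested, *Slc7a11*, the cystine importer, had an unadjusted p below 0.05. It read 7.36, 7.25 and 8.22 TPM in Trp53fl/fl and 6.34, 4.19 and 4.88 TPM in VP (log2 difference -0.50, limma unadjusted p = 0.0220, adjusted p = 0.341). The list's median was -0.13, beside -0.07 for all genes tested. The 4 genes of UDP-glucuronate supply and turnover had a median of -0.11, and the 5 tested genes of sulfate activation and transport a median of 0.02. Of 3 sulfatases listed for deconjugation, *Arsa* and *Arsb* were tested, with a median of 0.03. The other, *Sts*, was not found by name among the genes given. None of these 3 lists held a gene past the unadjusted threshold. Of 6 conjugate exporters 5 had a negative difference (83.3%, beside 60.8% of all genes tested), with a median of -0.26. *Abcc4*, an exporter of glutathione and steroid conjugates, read 60.4, 70.8 and 68.0 TPM against 47.6, 35.0 and 66.6 TPM (-0.46, unadjusted p = 0.0790).

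Among 13 tested enzymes of neighbouring detoxification reactions, *Ephx1*, the microsomal epoxide hydrolase, passed the adjusted test. It fell from 32.6, 41.9 and 30.9 TPM to 7.99, 9.36 and 7.46 TPM (log2 difference -1.96, SE 0.16, limma adjusted p = 0.00804). The carboxylesterases *Ces2a* and *Ces2c* gave 0.93 (unadjusted p = 0.0205, adjusted p = 0.340) and 0.83 (unadjusted p = 0.0232, adjusted p = 0.341). *Ces2c* read 19.1, 15.1 and 20.1 TPM against 50.9, 31.3 and 21.9 TPM, with VP tumor 1 highest as for *Sult1a1*. *Akr1b8*, an aldo-keto reductase, gave -0.25. The list's median was -0.07.

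Of 16 tested regulators, 4 had an unadjusted p below 0.05, beside 12.5% of all genes tested. *Nfe2l2*, which encodes Nrf2, read 103, 123 and 90.5 TPM in Trp53fl/fl and 77.3, 68.8 and 88.6 TPM in VP (log2 difference -0.43, limma unadjusted p = 0.0258, adjusted p = 0.346). Its partner *Mafg* gave -0.35 (unadjusted p = 0.0235) and the aryl hydrocarbon receptor *Ahr* gave -0.45 (unadjusted p = 0.0240), while the vitamin D receptor *Vdr* gave 0.44 (unadjusted p = 0.0228). The median of the list was 0.04. Of 17 known Nrf2 targets outside the transferases 16 had a negative difference, with a median of -0.15, where 60.8% of all genes were negative. After rescaling it was 11 of 17 (49.9% of all genes), and 17 of 17 after epithelial centring (76.5% of all genes). *Slc7a11* alone among them had an unadjusted p below 0.05. *Txnrd1*, *Prdx1* and *Pgd* gave -0.32, -0.26 and -0.19, while *Fth1*, *Taldo1*, *Tkt* and *Ftl1*, also at high levels, gave 0.07, -0.03, -0.04 and -0.05.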

How the data were processed

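RNA from 6 AOM/DSS colon tumors, 3 Trp53fl/fl and 3 VP, was measured by poly(A) RNA-seq. The authors deposited gene-level TPM, and their processing notes name HISAT2, StringTie and the mm9 build, without versions. The table holds no coordinates, so positions are those of GENCODE M21 (GRCm38), matched by gene ID for all 69 members. Depth is unknown because TPM keeps none, and its sum is fixed, so a level is relative to all other genes. The group of each tumor was taken from its label, and no 2 columns were identical.

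Genes at 1 TPM or more in at least 3 tumors entered limma (version 3.58.1, R 4.3.3) on log2(TPM + 1), with a variance trend and Benjamini-Hochberg adjustment over all 15117 genes tested. The routine was tested on simulated data. Differences on this scale understate changes of genes with a low level. Members at an unadjusted p below 0.05, without overlap, or with a mean of at least 20 TPM were given in every tumor, and pathway genes were named at an unadjusted p below 0.05 or a mean of 50 TPM or more. Lists were described by counts and medians. Members and lists were chosen with earlier results of these data known. Sequence shared between genes was counted as stretches of 75 bases in GENCODE transcripts, and motifs were searched on both strands of RefSeq promoters. Alternatives were a pseudocount of 0.1, no filter, a floor of 5 TPM on the mean, rescaling by median-of-ratios factors, centring on 12 epithelial markers, no trend, a replicate block, and each tumor left out.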

Additional observations from a re-analysis of the deposited data

How the results depend on the processing

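No named member passed an adjusted p of 0.05 under any of the 13 alternatives, and the lowest adjusted p among them was 0.150 (*Sult1c2* without Trp53fl/fl tumor 3). Over all genes, 25 passed, 12 of them higher in VP. This count was 7 without a filter, 10 with a replicate block (7 higher) and 6 to 28 with a tumor left out, with 20 of 28 higher without VP tumor 3 and 10 of 27 after epithelial centring. Members with a limma unadjusted p below 0.05 numbered 8 (12.5% of all genes), and 4 after epithelial centring (1 higher, 19% of all genes). The 3 lower members after centring were *Gstm5*, *Gstz1* and *Ugt2b34*. There were 4 with the replicate block (10.9%) and 0 to 9 with a tumor left out. Members without overlap numbered 5 (19.3% of all genes), then 3 after centring (27.4%) and 6 to 11 with a tumor left out (25.1% to 36.4%), where smaller groups overlap less. The summed *Gst* difference, VP minus Trp53fl/fl, was -16.4 TPM, against 78.0 after rescaling and -157 after centring, and it ran from -77.8 to 44.6 TPM with a tumor left out, positive without Trp53fl/fl tumor 3 or VP tumor 2. That of *Mgst* was 56.5 TPM, against 80.9 and 19.8. The cause was not tested.

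The log2 difference changed sign after rescaling for *Gsto1* (0.012) and *Gstp2* (0.073). After centring it did so for *Gstp1* (-0.046), *Mgst1* (-0.041), *Mgst2* (-0.066), *Gsta4* (-0.035) and *Sult2b1* (-0.032). With a tumor left out it ranged from -0.59 to 0.43 for *Gstp2*, -0.13 to 0.036 for *Gsto1*, -0.14 to 0.29 for *Mgst1*, -0.13 to 0.36 for *Sult2b1*, -0.047 to 0.19 for *Gsta4*, -0.13 to 0.38 for *Gsta3*, -0.41 to 0.53 for *Gsta5*, -0.24 to 0.050 for *Gstm1* and -0.0091 to 0.29 for *Gstk1*. The 8 members at an unadjusted p below 0.05 kept their sign, with *Sult1a1* at 0.76 to 1.49 and *Ugt2b34* at -0.56 to -0.31. The mean filter of 5 TPM left *Sult1c2* out. Replicate numbers are shared by both genotypes, but same-numbered tumors did not deviate together (correlations 0.0185, -0.052 and 0.0175), so the replicate block is an arbitrary pairing. With 3 tumors a group and no depth, differences of the size seen here lie near the spread between tumors.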
